A study of Homo sapiens with 20 samples.

Results

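Tumors grown from 2 human rhabdomyosarcoma cell lines, SJRH30 and RD, were compared as they stood without the study's intended perturbation. The 9 libraries compared are 4 SJRH30 tumors (control replicates 1, 2, 4 and 5) and 5 RD tumors (control replicates 1 to 5), of 20 libraries in the series, and the test covered 36084 of the 44294 genes with values. Replicate 3 of the SJRH30 controls, a shallow library, was left out, and a gene entered the test with a normalized count of at least 5 in at least 4 of the 9 libraries. All 9 tumors carry a non-targeting guide, the control of a TLE3 knockout, and were grown as xenografts in NOD/SCID mice, so both lines share the guide, the immune-deficient host and whatever mouse cells grew into the tumor. Each group is 1 established cell line. A difference between the groups is therefore one between 2 lines, and their fusion status cannot be told apart from anything else in which these lines differ. No label states whether each tumor of a line grew in its own mouse, so p-values measure the spread between these samples, which may in part be technical.

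Rhabdomyosarcoma is a childhood cancer of cells that have started, and not finished, skeletal muscle differentiation. SJRH30 (also Rh30) is an alveolar rhabdomyosarcoma line that carries the PAX3-FOXO1 fusion, which joins the DNA-binding part of the muscle progenitor factor PAX3 to the activation domain of FOXO1 and drives genes such as FGFR4, MYCN and MYOD1. RD is an embryonal line with no such fusion and with an activating mutation of the small GTPase NRAS, which signals through the MAP kinase cascade. In normal muscle, PAX3 and PAX7 mark progenitors, MYF5 and MYOD1 commit them, MYOG starts terminal differentiation and the sarcomere genes follow.

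A pair of SJRH30 libraries stood apart from the other 7, and this touches every result below. In SJRH30 controls 2 and 4 the GC content of transcripts, weighted by their counts, was 53.33% and 52.68%. It was 49.72% and 49.08% in SJRH30 controls 1 and 5, against 48.89% to 49.75% in the 5 RD libraries. Across 14063 protein-coding genes, the difference of controls 2 and 4 from controls 1 and 5 followed GC content with a Spearman rho of 0.836, a description over genes of the same 4 libraries. The line difference had a rho of 0.315 with GC content in all 9 libraries and of 0.00507 without those 2 libraries. Most gene group counts are therefore given with all 9 libraries and again without SJRH30 controls 2 and 4. For most single genes printed with a test, the log2 difference of those 7 libraries follows the adjusted p in the same parentheses, marked "without". A further view came from tumors that share no library with these 9, the 5 SJRH30 tumors and RD tumors 1 to 4 labelled TLE3 knockout. There the rho was 0.0781.

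**Figure D1:**
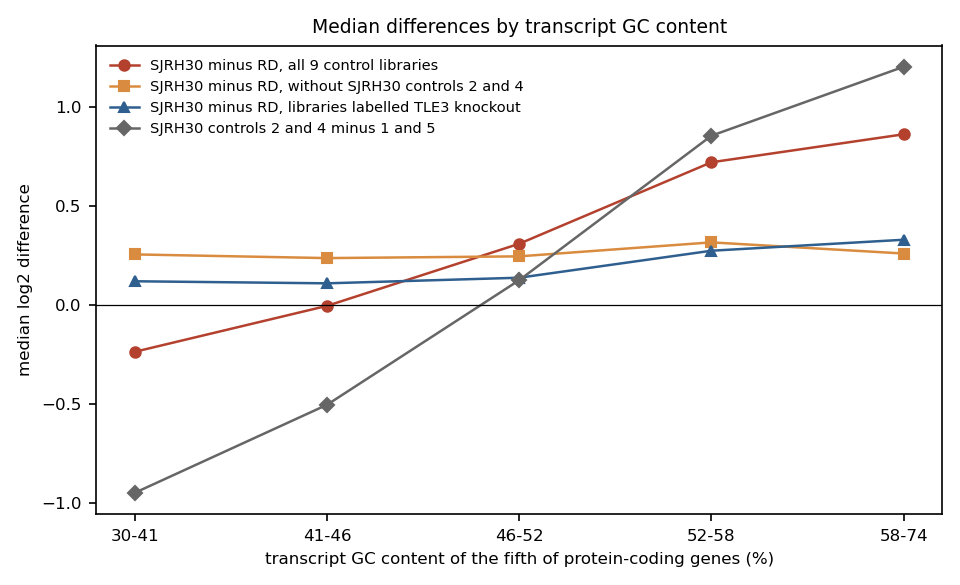
Median log2 difference (vertical axis) in 5 equal groups of protein-coding genes ordered by transcript GC content in percent (horizontal axis), for SJRH30 minus RD in 3 sets of libraries and for SJRH30 controls 2 and 4 minus 1 and 5. The line difference of all 9 libraries runs from -0.24 in the group of lowest GC content to 0.86 in the group of highest, while without SJRH30 controls 2 and 4 it stays between 0.24 and 0.32.

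In those knockout tumors the targeted gene did not check the labels in SJRH30. TLE3, a corepressor, had 582 to 967 normalized counts in the 5 SJRH30 libraries labelled knockout, against 185 to 638 in the 5 SJRH30 controls. In RD it had 424 to 1547 in the libraries labelled knockout, against 1270 to 2622 in the controls. Summed normalized counts were 37.99 to 60.69 M in the 4 SJRH30 libraries compared and 26.05 to 33.26 M in the 5 RD libraries. They are the authors' scaled values, so the depth in reads behind each is not known here. Libraries of a line correlated with each other at 0.876 to 0.982 in SJRH30 and 0.873 to 0.972 in RD (Spearman rho over the more abundant genes only), and libraries of different lines at 0.556 to 0.787. Genes with a mean of at least 500 had a median SD of 0.53 on the log2 scale among SJRH30 libraries (9720 genes) and of 0.33 among RD libraries (9444 genes).

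Calls ran in both directions. Of 36084 genes tested, 7625 (21.1%) were called higher and 9099 (25.2%) lower in SJRH30, that is at an adjusted p below 0.05 in limma with Benjamini-Hochberg adjustment over all genes. Among 18584 protein-coding genes, 51.9% were called, 4982 higher (26.8%) and 4671 lower (25.1%), and 142 genes of all kinds were higher and 189 lower by at least 5 on the log2 scale. Without SJRH30 controls 2 and 4 the counts were 5756 higher (16.5%) and 5842 lower (16.8%) of 34832 genes. The filter on low values was kept there. A gene present in SJRH30 alone could then no longer enter the test, while one present in RD alone could. With a correction for GC content in all 9 libraries, 51.7% of 35718 genes were called, 7617 higher (21.3%) and 10853 lower (30.4%). Counts given below for a gene group should be read against these shares, since 46.3% of all genes were called. The groups did not overlap for 12864 genes (35.7%). Long intergenic RNAs leaned to RD, with 596 higher and 1773 lower in SJRH30 of 4892 (median log2 difference -0.999, and -0.73 without SJRH30 controls 2 and 4). Small nucleolar RNA genes leaned to SJRH30, with 94 higher and 11 lower of 205 (65 and 8 without SJRH30 controls 2 and 4). The median log2 difference over all genes was -0.29. It was -0.90 when libraries were scaled to equal nuclear totals, where 4116 genes were higher and 15286 lower. Under quantile normalization 7413 were higher and 6655 lower, and with a minimum value of 50 the counts were 6741 higher and 5781 lower. The split between directions therefore depends on the scale and the filter. The differences below are those of the authors' scaling unless stated.

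The labels of the lines were checked against the genes that define them. PAX3 had 1521, 1515, 1376 and 1898 normalized counts in SJRH30 controls 1, 2, 4 and 5, against 704, 761, 768, 793 and 625 in RD controls 1 to 5. It was higher in SJRH30 in every library, by 1.10 ± 0.23 on the log2 scale (difference ± SE, adjusted p = 0.00126), and by 1.22 without SJRH30 controls 2 and 4. With equal nuclear totals the call was lost (0.45, adjusted p = 0.134). FOXO1 had 2840, 2361, 2375 and 3258 in SJRH30, against 1931, 2515, 2875, 1660 and 1760 in RD. These ranges overlap, and the difference of 0.35 ± 0.25 did not pass the test (adjusted p = 0.26). Reads of a PAX3-FOXO1 transcript fall on both genes and were not counted apart from normal transcripts, so neither value measures the fusion. PAX7 was the PAX gene of RD, with 104, 28, 89 and 44 in SJRH30, against 1327, 1816, 2302, 1333 and 1620 in RD, a log2 difference of -4.79 ± 0.36 (adjusted p = 5.96e-08, -4.58 without). Of 4 tested genes often used to mark tumors without the fusion, PAX7 and HMGA2, a chromatin protein of fetal tissue, were lower in SJRH30. HMGA2 had 3328, 1970, 2045 and 4585 in SJRH30, against 4978, 9034, 8331, 6034 and 7574 in RD (-1.33 ± 0.30, adjusted p = 0.00231, -0.85 without). EGFR (0.91 times as high in SJRH30) and FBN2 (1.14 times) did not pass the test, and MYF5 was near 0 in both lines and was not tested.

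**Figure D2:**
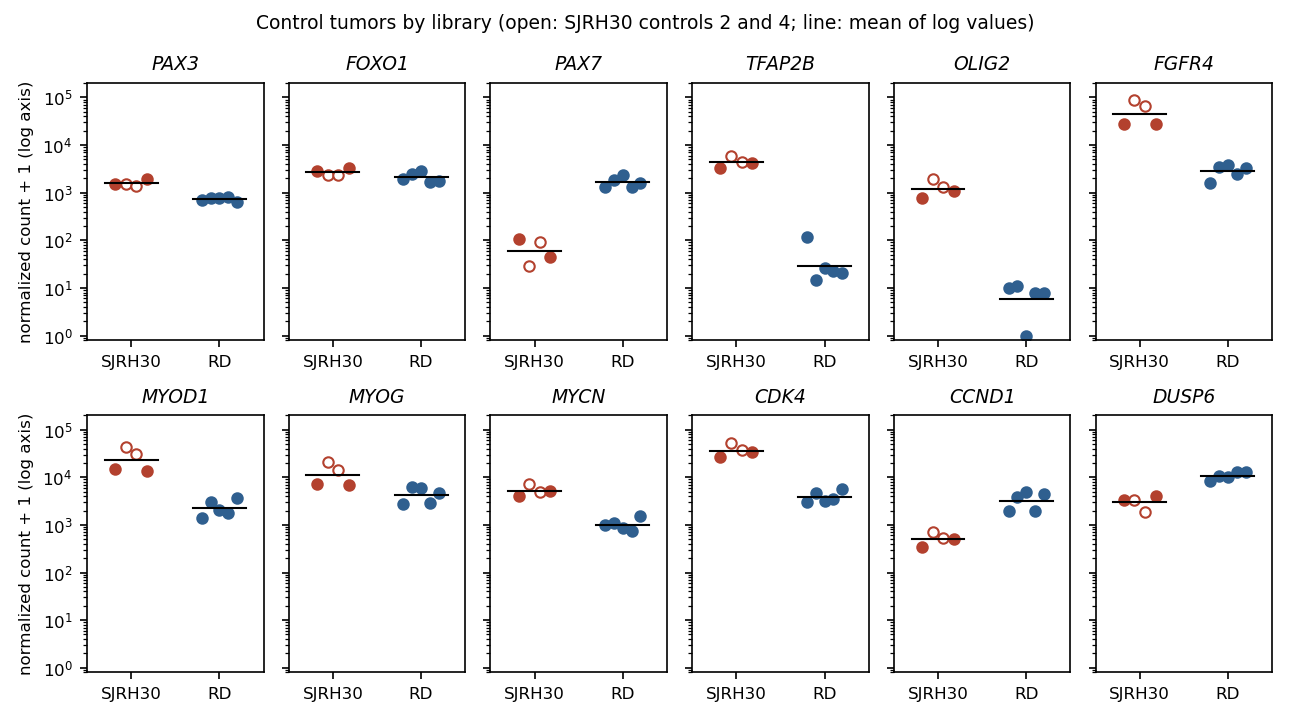
Normalized counts plus 1 on a log axis for 12 genes in each control library, SJRH30 left and RD right, with the mean of log values as a line and SJRH30 controls 2 and 4 as open circles. PAX7, CCND1 and DUSP6 are lower and TFAP2B, OLIG2, FGFR4, MYOD1, MYCN and CDK4 higher in all 4 SJRH30 libraries than in any RD library, while FOXO1 overlaps between the lines.

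Genes known as targets of PAX3-FOXO1 were mostly high in SJRH30. Of 30 listed and tested, 26 were higher and 2 lower, with a median log2 difference of 2.81, beside -0.29 over all genes and -0.035 over protein-coding genes. The counts were 25 higher and 1 lower without SJRH30 controls 2 and 4 (median 2.53), and 25 higher and 1 lower in the tumors labelled knockout (median 2.75). FGFR4, the FGF receptor that the fusion is best known to induce, had 27116, 86201, 64928 and 28009 normalized counts in SJRH30 controls 1, 2, 4 and 5, against 1625, 3445, 3823, 2422 and 3267 in RD. Its log2 difference was 4.02 ± 0.38 (adjusted p = 5.62e-07), and 3.30 without controls 2 and 4, which had the highest FGFR4 values. MYCN, a MYC family oncogene, had 4065, 7106, 4860 and 5031 in SJRH30, against 1004, 1117, 864, 727 and 1522 in RD (2.35 ± 0.27, adjusted p = 6.14e-06, 2.16 without). No RD library came within 2-fold of the lowest SJRH30 value of either gene.

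Other targets had larger differences, and some of these were near 0 in RD libraries. OLIG2, a neural transcription factor used as a stain for fusion-positive tumors, had 775, 1920, 1341 and 1073 in SJRH30, against 9, 10, 0, 7 and 7 in RD (7.68 ± 0.59, adjusted p = 7.8e-08, 7.28 without). TFAP2B, another such stain, had 3264, 5903, 4393 and 4105 in SJRH30, against 118, 14, 25, 22 and 20 in RD (7.19 ± 0.47, adjusted p = 1.17e-08, 6.96 without). RD control 1 stood at 118 for TFAP2B, above its other RD libraries, and still far below SJRH30. PRDM12, a chromatin regulator of sensory neurons, averaged 9764 ± 5217 in SJRH30 and 53.6 ± 15.6 in RD (7.38 ± 0.36), where errors of means are SD (n = 4 and n = 5). ASS1, the arginine-making enzyme argininosuccinate synthase, had 68640, 158729, 107728 and 67098 in SJRH30, against 631, 905, 850, 916 and 1016 in RD (6.79 ± 0.30, adjusted p = 1.96e-10, 6.31 without). It was in all SJRH30 libraries far above every RD library. POU4F1, a neural homeobox factor, averaged 9515 ± 1525 in SJRH30 and 160.2 ± 41.5 in RD (5.91 ± 0.27), and it overlaps annotated antisense genes.

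Other targets separated the lines by smaller amounts. NOS1, a nitric oxide synthase and a further marker of fusion-positive tumors, had 5473, 9371, 7479 and 5554 in SJRH30, against 411, 398, 389, 483 and 317 in RD (4.10 ± 0.25, adjusted p = 6.86e-09, 3.80 without). PIPOX, a peroxisomal oxidase, had 6025, 13379, 9993 and 6752 in SJRH30, against 478, 622, 452, 327 and 410 in RD (4.26 ± 0.29, adjusted p = 1.72e-08, 3.83 without). ALK, a receptor kinase, had 6484, 6781, 5793 and 6254 in SJRH30, against 1894, 2125, 2581, 1653 and 1334 in RD (1.75 ± 0.25, adjusted p = 4.72e-05, 1.77 without). For these 3 genes the ranges were apart, and ALK varied least of the 3 between SJRH30 libraries. CDH3 (P-cadherin) and KCNN3, a potassium channel, were higher by 2.97 ± 0.36 and 1.86 ± 0.25. BMP5, GREM1, JAKMIP2 and MET had lower values in SJRH30 controls 2 and 4 than in 1 and 5. BMP5, a bone morphogenetic protein, had 3205, 1369, 1630 and 3870 in SJRH30, against 117, 65, 31, 72 and 82 in RD (5.07 ± 0.39, and 5.68 without controls 2 and 4). The 2 members that were lower in SJRH30 were FOXF1 and the chemokine receptor CXCR4, at -1.16 ± 0.34 and -0.85 ± 0.26. The call of CXCR4 was lost without SJRH30 control 4 (adjusted p = 0.0527) and without controls 2 and 4 (adjusted p = 0.103). IGF1R and PDGFRA, both receptor kinases, did not pass the test (0.28 ± 0.27 and -0.21 ± 0.31).

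The muscle regulators did not move as a group, with 8 of 31 higher and 9 lower in SJRH30 (6 and 9 without SJRH30 controls 2 and 4). MYOD1, which commits cells to muscle, had 14921, 44059, 31226 and 13805 normalized counts in SJRH30, against 1363, 3039, 2010, 1806 and 3649 in RD. It was higher by 3.37 ± 0.38 (adjusted p = 4.16e-06), and by 2.69 without controls 2 and 4. MYOG, which starts differentiation, had 7299, 20823, 14014 and 6911 in SJRH30, against 2716, 6088, 5942, 2848 and 4722 in RD. All 4 SJRH30 values lay above the RD range, and the difference was 1.39 ± 0.37 (adjusted p = 0.00625), but it did not pass the test without controls 2 and 4 (0.75, adjusted p = 0.105) or in the tumors labelled knockout (0.14, adjusted p = 0.769). MYF6, a late regulator, varied from 0 to 138 among SJRH30 libraries and from 2 to 431 among RD libraries and did not pass the test.

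The cofactors of these regulators split between the lines. EYA2, a phosphatase and transcriptional coactivator of muscle progenitors, had 9049, 12177, 9295 and 7696 in SJRH30, against 1379, 1866, 2423, 1218 and 1036 in RD (2.64 ± 0.28, adjusted p = 2.7e-06, 2.46 without), and EYA1 was higher by 2.85 ± 0.26. SNAI1, a repressor that competes with MYOD1 at its sites, had 1059, 3372, 2380 and 1366 in SJRH30, against 38, 61, 33, 72 and 74 in RD (5.10 ± 0.37, adjusted p = 4.3e-08, 4.48 without). Genes whose products tie up the E-protein partners of MYOD1 were lower in SJRH30, namely ID1 at -2.23 ± 0.42, ID3 at -1.51 ± 0.35 and ID4 at -2.65 ± 0.42, while ID2 did not pass the test (-0.68 ± 0.29) except without SJRH30 control 1 (-0.84, adjusted p = 0.0344). TCF4, one of those E proteins, averaged 1110 ± 449 in SJRH30 and 9784 ± 2269 in RD (-3.20 ± 0.31).

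MYOD1 and MYOG bind the E-box, the letters CANNTG, and their proteins favour the form CAGCTG. RefSeq promoters (GRCh38.p14, 250 bases before to 50 after the start of a gene, both strands searched) held CAGCTG in 41.7% of the 48 sarcomere and differentiation genes with an entry. The share was 17.9% of the 16280 tested genes with an entry, and CANNTG was in 81.2% of those 48 and 64.9% of those 16280. 3 promoters are printed because the genes below are a regulator and 2 of its possible targets that differ in opposite directions, MYOG and TNNT2 higher and KLHL41 lower in SJRH30. Capitals mark CANNTG in MYOG and CAGCTG in the others, and the same letters stand before the start of TNNT2 and of KLHL41. A match is a description of letters and not of a bound site. MYOG lies at chr1:203085963-203086262, minus strand, TNNT2 at chr1:201377631-201377930, minus strand and KLHL41 at chr2:169509452-169509751, plus strand.
MYOG: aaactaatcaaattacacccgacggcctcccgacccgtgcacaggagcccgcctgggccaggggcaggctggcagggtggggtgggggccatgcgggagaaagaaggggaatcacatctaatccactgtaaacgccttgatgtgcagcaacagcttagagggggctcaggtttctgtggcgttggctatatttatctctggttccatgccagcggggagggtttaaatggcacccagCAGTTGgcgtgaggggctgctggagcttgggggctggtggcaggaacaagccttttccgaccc
TNNT2: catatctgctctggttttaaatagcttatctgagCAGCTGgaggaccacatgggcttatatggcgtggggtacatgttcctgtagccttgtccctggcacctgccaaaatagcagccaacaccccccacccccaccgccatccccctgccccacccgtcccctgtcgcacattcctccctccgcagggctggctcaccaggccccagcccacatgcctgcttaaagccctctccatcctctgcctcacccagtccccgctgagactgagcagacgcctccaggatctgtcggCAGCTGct
KLHL41: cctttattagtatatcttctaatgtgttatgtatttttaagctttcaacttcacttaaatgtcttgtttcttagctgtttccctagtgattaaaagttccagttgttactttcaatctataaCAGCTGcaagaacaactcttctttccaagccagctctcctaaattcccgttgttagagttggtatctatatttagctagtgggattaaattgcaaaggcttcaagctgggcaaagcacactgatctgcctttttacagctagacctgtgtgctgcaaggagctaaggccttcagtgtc

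Sarcomere and differentiation genes gave no common direction. Of 74 tested, 12 were higher and 10 lower in SJRH30, with a median of -0.73, and 6 were higher and 10 lower without SJRH30 controls 2 and 4 (median -1.95). In the tumors labelled knockout 5 were higher and 15 lower. KLHL41, a sarcomere assembly factor, had 107, 116, 439 and 165 in SJRH30, against 3700, 1333, 1718, 4402 and 2362 in RD (-3.81 ± 0.42, adjusted p = 3.87e-06, -4.19 without). MYH3, embryonic myosin, had 202, 619, 2137 and 175 in SJRH30, against 8515, 686, 1381, 3833 and 1570 in RD. It was lower by a log2 difference of -2.22 ± 0.71 (adjusted p = 0.018), and SJRH30 control 4 overlapped the RD range. The call was lost without SJRH30 control 1 (adjusted p = 0.0594), SJRH30 control 5 (0.0605) or RD control 1 (0.056). TNNT2, the troponin T of heart and of embryonic muscle, had 572, 1697, 1749 and 723 in SJRH30, against 901, 51, 71, 217 and 111 in RD (2.79 ± 0.64, adjusted p = 0.00242). RD control 1 overlapped the SJRH30 range. The call was lost without SJRH30 controls 2 and 4 (2.08, adjusted p = 0.0678).

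RNA of both genes whose proteins fuse myoblasts into fibers was higher in SJRH30. MYMX (myomixer) had 1918, 4683, 3046 and 2393 in SJRH30, against 168, 327, 196, 185 and 336 in RD (3.61 ± 0.32, adjusted p = 2.85e-07, 3.20 without). MYMK (myomaker) had 685, 1692, 1050 and 654 in SJRH30, against 144, 284, 170, 110 and 175 in RD (2.48 ± 0.34, adjusted p = 3.44e-05, 1.99 without). In the tumors labelled knockout the difference was 1.66 for MYMX and 0.28 for MYMK, which did not pass the test there (adjusted p = 0.604). STAC3, which couples calcium channels in muscle and lies in the 12q region described below, was higher by 2.47 ± 0.31. DES (desmin), the usual stain for a muscle tumor, had 4596, 11445, 11212 and 3907 in SJRH30, against 11317, 4643, 6061, 6127 and 6341 in RD and did not pass the test (0.07 ± 0.36, adjusted p = 0.881, -0.64 without).

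Adult muscle genes ran over wide and overlapping ranges in both lines. ACTA1, skeletal actin, had 497, 3417, 28833 and 103 in SJRH30 controls 1, 2, 4 and 5, against 44688, 53, 15, 22152 and 9183 in RD controls 1 to 5. CKM, muscle creatine kinase, had 629, 3334, 24376 and 389 in SJRH30, against 69751, 76, 23, 36032 and 8798 in RD. MYH1, an adult fast myosin, had 222, 1751, 9266 and 46 in SJRH30, against 47370, 38, 25, 15789 and 5482 in RD. The same libraries were high for each, RD controls 1, 4 and 5 and SJRH30 control 4, and none of the 3 genes passed the test, with log2 differences of -0.01 ± 2.04, 0.01 ± 1.93 and -1.05 ± 1.95. They and MYH4, MYH2, PVALB, MYL1 and ACTN3 were among the 10 abundant protein-coding genes with the highest spread in SJRH30. RD control 1 also stood alone in skin keratins. KRT5 had 7410 and KRT14 6933 normalized counts there, where the other 8 libraries had at most 19 and 40. The summed value of the 10 keratinocyte markers was 1152 to 2031 in SJRH30 and 964 to 22467 in RD. The part of host muscle or skin in these values was not tested.

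**Figure D3:**
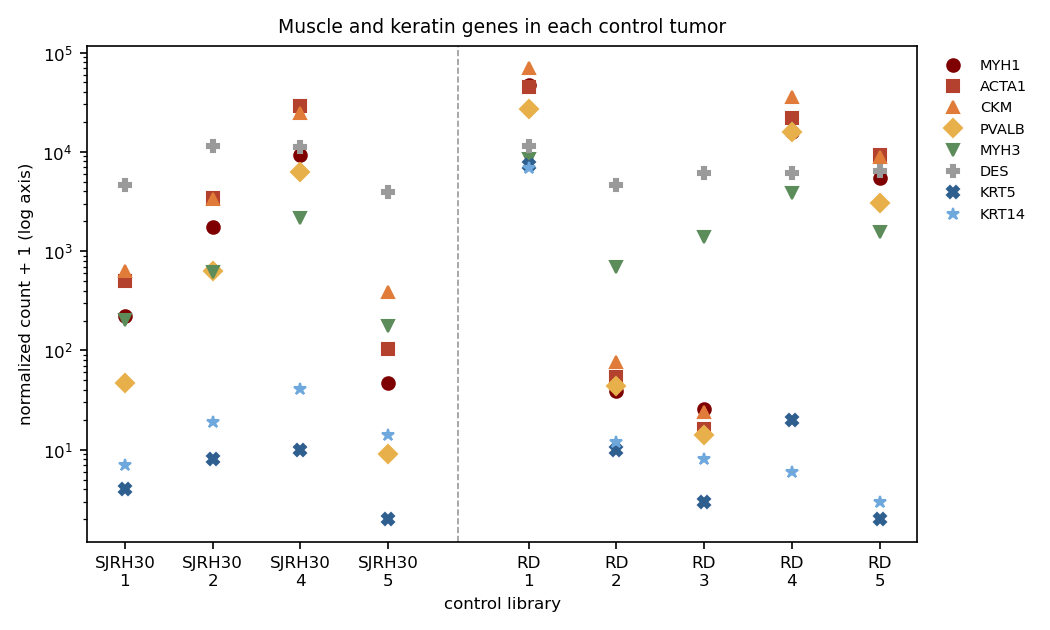
Normalized counts plus 1 on a log axis for 8 muscle and keratin genes in each control library, SJRH30 left of the dashed line and RD right of it. Adult muscle genes such as ACTA1 run from 103 to 28833 among SJRH30 libraries and from 15 to 44688 among RD libraries, while DES stays between 3907 and 11445, and KRT5 and KRT14 are high in RD control 1 alone.

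At the neuromuscular junction, the beta, gamma, delta and epsilon subunit genes of the acetylcholine receptor were higher in SJRH30. Among these, CHRNB1 (beta) was higher by 1.92 and CHRNE (epsilon) by 1.16. Of 12 junction genes, 5 were higher and 3 lower (3 and 3 without SJRH30 controls 2 and 4), with a median of 0.68, or -0.01 under quantile normalization. In the tumors labelled knockout 1 was higher and 5 lower. CHRNG, the fetal gamma subunit and a marker of rhabdomyosarcoma, had 1569, 5467, 3528 and 1660 in SJRH30, against 360, 615, 1032, 579 and 429 in RD (2.24 ± 0.39, adjusted p = 0.000262, 1.52 without). CHRND, the delta subunit, had 11782, 30278, 19979 and 12719 in SJRH30, against 3154, 6524, 6845, 5977 and 6490 in RD (1.63 ± 0.33, adjusted p = 0.00101, 1.13 without). Neither difference passed the test in the tumors labelled knockout (-0.18 and 0.26, adjusted p = 0.525 and 0.466). For CHRNG the control and knockout differences between the lines differed by 2.42 on the log2 scale (adjusted p = 0.03 in a test of that difference in 18 deep libraries). That test held SJRH30 controls 2 and 4 and was not run without them. CHRNA1, the alpha subunit, did not pass (-0.68 ± 0.30) except without RD control 1 (-0.88, adjusted p = 0.0235), and ACHE, the esterase that ends the signal, was lower (-2.05 ± 0.37).

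Among 36 receptor tyrosine kinases, 10 were higher and 11 lower in SJRH30, beside 26.8% and 25.1% of protein-coding genes (9 and 12 without SJRH30 controls 2 and 4). Among FGF receptors, FGFR2, FGFR3 and FGFR4 were higher and FGFR1 was not called. FGFR2 had 1977, 2445, 2117 and 2483 in SJRH30, against 186, 89, 119, 121 and 72 in RD (4.32 ± 0.29, adjusted p = 1.72e-08, 4.30 without), and FGFR3 was higher by 2.74 ± 0.35. FGFR1 had 1635, 3200, 2455 and 1525 in SJRH30, against 2350, 3833, 3946, 2523 and 3477 in RD, and did not pass the test (-0.58 ± 0.29, adjusted p = 0.104). It passed without SJRH30 control 2 (-0.79, adjusted p = 0.0353) and without controls 2 and 4 (-0.997, adjusted p = 0.0129). Levels per kilobase of annotated exon put FGFR4 first in both lines, at 16130 in SJRH30 and 912 in RD. FGFR1 had 338 in SJRH30 and 495 in RD, and FGFR2 had 336 in SJRH30 and 17.5 in RD. NTRK3, DDR1 and MET were higher, by 2.40 ± 0.27, 3.23 ± 0.32 and 2.02 ± 0.28. RET, EPHA4 and AXL were lower, at -2.10 ± 0.38, -2.26 ± 0.29 and -1.95 ± 0.30. IGF1R, targeted in trials in this tumor, averaged 5113 ± 799 in SJRH30 and 4349 ± 1508 in RD.

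The growth factor IGF2, high in most rhabdomyosarcomas, was abundant in both lines. It had 214264, 524839, 441283 and 216038 in SJRH30, against 194688, 337626, 283678, 187443 and 329535 in RD, with no call (0.32 ± 0.42, adjusted p = 0.551, -0.26 without). IGF-binding proteins differed more, and in direction. IGFBP3 was higher (1.47), IGFBP2, IGFBP5 and IGFBP6 were lower, and IGFBP1, IGFBP4 and IGFBP7 were not called. IGFBP5 had 537, 1006, 624 and 567 in SJRH30, against 12463, 23701, 17304, 14719 and 30494 in RD (-4.82 ± 0.30, adjusted p = 8.36e-09, -5.08 without), and IGFBP2 was lower (-1.30 ± 0.42), a call lost without SJRH30 control 1 (adjusted p = 0.0658) or 5 (0.0503). The fetal RNA-binding proteins split between directions. LIN28B, which blocks let-7, and IGF2BP1 were higher, LIN28A (-1.91) and IGF2BP2 (-1.05) were lower, and IGF2BP3 was not called. Of 20 genes in the list of the IGF axis and these proteins, 5 were higher and 8 lower (4 and 5 without SJRH30 controls 2 and 4). LIN28B had 585, 397, 424 and 913 in SJRH30, against 129, 90, 102, 84 and 74 in RD (2.53 ± 0.32, adjusted p = 1.27e-05, 2.94 without), and IGF2BP1 was higher by 1.43 ± 0.29.

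Genes that report MAP kinase activity had more lower than higher calls in SJRH30. Of 20 tested, 1 was higher and 10 lower (0 and 11 without SJRH30 controls 2 and 4, 3 and 11 in the tumors labelled knockout). The median was -1.19, beside -0.29 over all genes and -0.035 over protein-coding genes. DUSP6, a phosphatase that switches ERK off, had 3336, 3331, 1866 and 4100 in SJRH30, against 8168, 10565, 10221, 12970 and 12573 in RD (-1.82 ± 0.28, adjusted p = 9.07e-05, -1.54 without). PHLDA1 had 508, 481, 471 and 530 in SJRH30, against 5271, 7499, 7626, 7961 and 7821 in RD (-3.85 ± 0.23, adjusted p = 5.52e-09, -3.78 without). DUSP4, a second ERK phosphatase, had 119, 206, 233 and 98 in SJRH30, against 1262, 2729, 1545, 1819 and 2870 in RD (-3.65 ± 0.33, adjusted p = 4.22e-07, -4.16 without). In all 3 genes the highest SJRH30 library was below the lowest RD library. SPRY4, an inhibitor of receptor kinase signaling, and SPRY1 were lower (-1.56 ± 0.28 and -1.96 ± 0.29), as was the ETS factor ETV1 (-2.35 ± 0.31). ETV4 did not pass with all libraries (-0.86 ± 0.37, adjusted p = 0.0678) and passed without SJRH30 controls 2 and 4 (-1.52, adjusted p = 0.00616), and without any 1 of SJRH30 control 2 and RD controls 1 and 4 (adjusted p of 0.019 to 0.0463). No phosphorylated protein was measured, so these are RNA levels only. The part of the NRAS mutation of RD was not tested and cannot be told apart from other differences between the lines.

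Immediate early genes, which follow acute signaling and also tissue handling, had lower calls and no higher one in the control tumors. Of 22 tested, none was higher and 12 were lower (none and 13 without SJRH30 controls 2 and 4), but 4 were higher and 8 lower in the tumors labelled knockout. FOSB had 310, 303, 453 and 166 in SJRH30, against 1234, 2776, 3793, 3001 and 1953 in RD (-3.03 ± 0.35, adjusted p = 5.63e-06, -3.38 without), and 0.03 in the tumors labelled knockout, where it did not pass. EGR1 had 2359, 3422, 2065 and 963 in SJRH30, against 9485, 7116, 9194, 3680 and 2695 in RD (-1.52 ± 0.41, adjusted p = 0.00756, -1.93 without). FOS had 810, 1863, 603 and 284 in SJRH30, against 12045, 2988, 5632, 2967 and 1160 in RD, with RD control 5 inside the SJRH30 range (-2.38 ± 0.57, adjusted p = 0.00333, -2.95 without). The part of tissue handling was not tested.

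The D cyclins, which partner CDK4 and CDK6, differed in direction. CCND1 had 345, 702, 530 and 504 in SJRH30, against 1941, 3830, 4941, 1919 and 4342 in RD (-2.64 ± 0.33, adjusted p = 1.37e-05, -2.91 without). CCND3 had 6842, 16164, 10740 and 6823 in SJRH30, against 3919, 4243, 3989, 3507 and 4213 in RD (1.26 ± 0.28, adjusted p = 0.0022, 0.78 without). The CCND3 call was lost under quantile normalization (0.48, adjusted p = 0.0644). CCND2 had 14160, 12647, 11187 and 17088 in SJRH30, against 6071, 8077, 11012, 9435 and 8439 in RD, and just passed (0.69 ± 0.27, adjusted p = 0.0439, 0.88 without). Its call was lost when any 1 of SJRH30 controls 1 and 5 or RD controls 1, 2, 4 and 5 was left out (adjusted p of 0.0532 to 0.109), and its sign turned under quantile normalization (-0.14). Their kinases differed in direction as well. CDK4 had 26756, 52778, 36773 and 33249 in SJRH30, against 3027, 4657, 3237, 3542 and 5550 in RD (3.22 ± 0.29, adjusted p = 3.52e-07, 2.94 without), and CDK6 had 3650, 2446, 2271 and 4625 in SJRH30, against 10174, 15251, 13892, 15835 and 16664 in RD (-2.19 ± 0.28, adjusted p = 1.8e-05, -1.78 without). CDK4 shares exons with TSPAN31 on the other strand, and the kit is not stated to keep strand, so their reads cannot be told apart.

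Of 24 cell cycle regulators, 11 were higher and 4 lower in SJRH30, with a median of 0.45, or -0.21 with equal nuclear totals. Without SJRH30 controls 2 and 4, 9 were higher and 5 lower (median 0.48). CCNE1, the cyclin of entry into S phase, had 3448, 7026, 5506 and 3907 in SJRH30, against 417, 541, 711, 473 and 633 in RD (3.13 ± 0.28, adjusted p = 2.97e-07, 2.75 without). E2F1 was higher by 2.21 ± 0.33. Inhibitors differed in direction. CDKN1C, an imprinted inhibitor, had 53, 65, 57 and 20 in SJRH30, against 1108, 2111, 1544, 938 and 2104 in RD (-5.02 ± 0.37, adjusted p = 4.64e-08, -5.46 without). CDKN2A, the p16 and ARF locus often deleted in cancer, was present in both lines, with 3010, 8735, 6098 and 3781 in SJRH30, against 1175, 2619, 1571, 1534 and 3724 in RD (1.35 ± 0.37), and its call was lost without SJRH30 controls 2 and 4 (adjusted p = 0.127). Most genes of the proliferation list were higher in SJRH30. Of 30 tested, 24 were higher and none lower, with a median of 1.37 (24 and none, 1.46, without SJRH30 controls 2 and 4, and 23 and none, 1.11, in the tumors labelled knockout). With equal nuclear totals 16 were higher and 1 lower (median 0.72). MKI67, the usual proliferation marker, had 5243, 9491, 7436 and 5793 in SJRH30, against 1621, 2680, 2191, 3688 and 3470 in RD (1.38 ± 0.29, adjusted p = 0.00146, 1.08 without). CCNB2, a mitotic cyclin, had 3511, 3616, 2922 and 4308 in SJRH30, against 227, 309, 200, 496 and 415 in RD (3.51 ± 0.30, adjusted p = 1.81e-07, 3.64 without). These are bulk tumors, in which fewer cells of a type and less RNA per cell cannot be told apart.

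In the MYC family, 7 of 13 genes were higher and 1 lower in SJRH30, with a median of 0.65, or -0.01 with equal nuclear totals. Without SJRH30 controls 2 and 4, 6 were higher and 2 lower (median 0.35). MYC had 1056, 1869, 1260 and 1393 in SJRH30, against 840, 1491, 947, 2236 and 1574 in RD, and its difference was 0.04 ± 0.31 (adjusted p = 0.932). MYCL had 250, 480, 395 and 367 in SJRH30, against 113, 166, 95, 96 and 215 in RD (1.48 ± 0.33, adjusted p = 0.0019, 1.22 without). The MYC ranges overlap. MXD3, a repressor of the same network that rises in S phase, was higher by 2.46 ± 0.31.

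CDK4 sat in a block of neighbours that were nearly all higher in SJRH30. Rh30 is known for amplification of this part of 12q, and copy number was not analysed here. Of 33 tested protein-coding genes from 0.6 Mb before to 0.2 Mb after the start of CDK4 (chromosome 12, GRCh38), 27 were higher and 1 lower, with a median of 2.38 (1.98 without SJRH30 controls 2 and 4, 1.67 in the tumors labelled knockout). Of 87 genes from 4 to 0.6 Mb before it, 15 were higher and 18 lower (median 0.06). These limits were set after the values were seen, so the counts are a description. GLI1, the transcription factor that carries out hedgehog signals, had 898, 2524, 1999 and 746 in SJRH30, against 60, 37, 42, 37 and 70 in RD (4.81 ± 0.38, adjusted p = 9.58e-08, 4.08 without). TSFM, a mitochondrial elongation factor, had 5389, 10562, 9185 and 6032 in SJRH30, against 694, 903, 831, 752 and 779 in RD (3.25 ± 0.26, adjusted p = 1.08e-07, 2.85 without). SHMT2, a mitochondrial serine enzyme, had 10053, 27461, 17473 and 11503 in SJRH30, against 1351, 1970, 2049, 1522 and 2223 in RD (3.10 ± 0.31, adjusted p = 1.13e-06, 2.58 without). DDIT3, OS9, METTL1 and MARS1 of the same block were higher, at log2 differences of 2.01, 2.60, 2.55 and 2.36. KIF5A, a neuronal motor, was the member that was lower (-1.74), and DCTN2, next to it, did not pass. MDM2, further along 12q and often amplified with CDK4 in other tumors, had 1782, 761, 995 and 2100 in SJRH30, against 1260, 1601, 1822, 1341 and 1667 in RD (-0.23 ± 0.30, adjusted p = 0.545, 0.34 without).

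**Figure D4:**
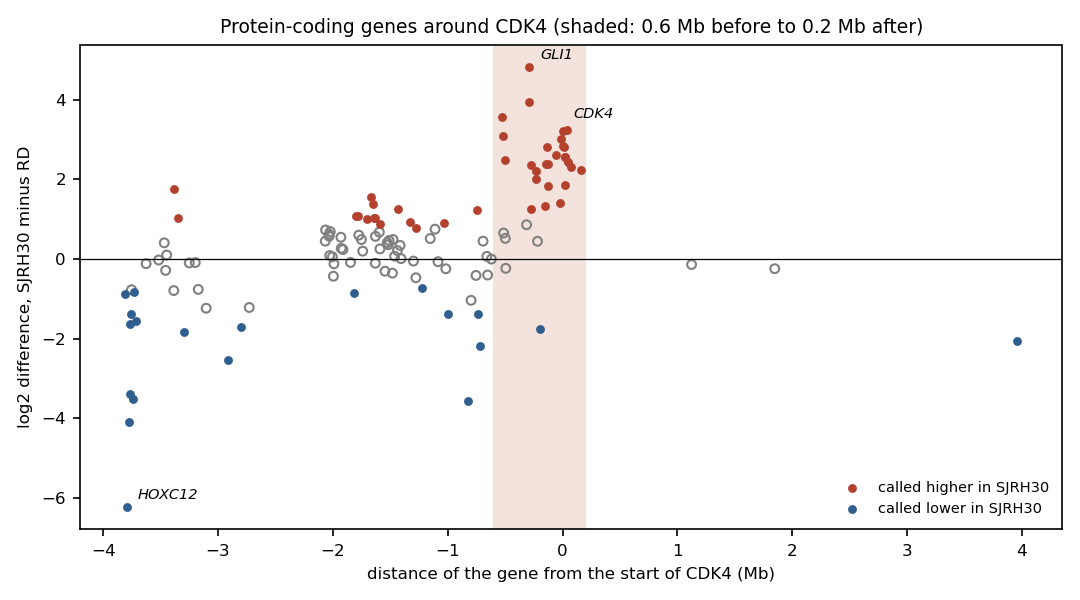
Log2 difference of SJRH30 minus RD controls (vertical axis) for tested protein-coding genes by distance from the start of CDK4 in Mb (horizontal axis), with called genes filled and the block from 0.6 Mb before to 0.2 Mb after shaded. In the block 27 of 33 genes were called higher, and at the far left the HOXC genes are lower.

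Runs of 15 neighbouring genes showed a second such block on chromosome 17. The runs named here were picked for the highest or lowest medians of all such runs, so their counts and medians are a description. From RAI1 to SHMT1 (chromosome 17, 17681473 to 18363563, GRCh38) all 15 genes were higher in SJRH30, with a median of 3.18 (2.59 without SJRH30 controls 2 and 4, 2.79 in the tumors labelled knockout). For comparison, the run from PIP4K2C to TSFM that holds CDK4 had a median of 2.55 and again 15 of 15 higher. USP22, a ubiquitin protease also on chromosome 17, was picked after its value was seen. It had 15247, 36152, 28912 and 17038 in SJRH30, against 434, 505, 721, 503 and 377 in RD (5.52 ± 0.30, adjusted p = 1.86e-09, 5.02 without). Over the whole of chromosome 17 the median was 0.68 (0.49 without SJRH30 controls 2 and 4), the highest of the chromosomes with all 9 libraries, and chromosome 18 was lowest at -0.87 (-0.65). The medians of 7 of 23 chromosomes changed sign without controls 2 and 4. Those of chromosomes 19 and 22 were 0.21 and 0.26 with them and -0.11 and -0.15 without, and those of chromosomes 5, 6, 12, 14 and X were between -0.18 and -0.01 with them and above 0 without. The lowest run was MAGEA4 to PNMA5 on chromosome X, with a median of -6.44, and the next, TMCO6 to PCDHA8 on chromosome 5, had a median of -3.81, with protocadherin alpha genes whose shared exons make the counts of single members uncertain.

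The hedgehog pathway, of 14 genes, had 5 higher and 2 lower, with a median of 0.39. The median was 0.09 without SJRH30 controls 2 and 4 (4 higher, 2 lower), -0.27 with equal nuclear totals, -0.05 with GC correction and -0.32 in the tumors labelled knockout (3 higher, 2 lower), so the list has no stable direction. HHIP, which binds hedgehog ligands and is itself induced by GLI1, had 1861, 1761, 1749 and 2409 in SJRH30, against 114, 147, 93, 110 and 104 in RD (4.09 ± 0.26, adjusted p = 7.55e-09, 4.22 without). GLI3, which acts mostly as a repressor, was lower, with 951, 1004, 1140 and 1153 in SJRH30, against 2617, 3492, 3704, 3052 and 2791 in RD (-1.55 ± 0.23, adjusted p = 7.14e-05, -1.57 without). SMO, the signal transducer, lost its call without SJRH30 controls 2 and 4 (0.98 ± 0.35 with them, 0.28 without, adjusted p = 0.454), and also without any 1 of SJRH30 controls 2 and 4 or RD controls 1 and 4 (adjusted p of 0.0617 to 0.116).

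Wnt, Notch, BMP and YAP genes were split between directions, and single members differed widely. Of 45 Wnt genes, 9 were higher and 15 lower (8 and 13 without SJRH30 controls 2 and 4). The receptors FZD6 and FZD7 were lower, FZD7 with 212, 259, 190 and 268 in SJRH30, against 975, 1234, 1398, 1558 and 2202 in RD (-2.62 ± 0.28, adjusted p = 2.15e-06, -2.57 without), and the ligand WNT10B was higher by 3.25 ± 0.34. Of 26 Notch genes, 4 were higher and 7 lower (2 and 7 without SJRH30 controls 2 and 4), with the targets HES1 and HEY1 and the coactivators MAML2 and MAML3 among the lower. HES1 had 322, 509, 393 and 289 in SJRH30, against 2985, 5224, 3010, 1744 and 4690 in RD (-3.15 ± 0.32, adjusted p = 1.42e-06, -3.43 without). MAML2 had 227, 98, 266 and 214 in SJRH30, against 5673, 11262, 8942, 4740 and 8545 in RD (-5.30 ± 0.33, adjusted p = 7.68e-09, -5.08 without). Of 34 BMP, TGF-beta and activin genes, 8 were higher and 13 lower (8 and 12 without those libraries). The secreted BMP antagonists CHRD and NOG were higher by 3.43 ± 0.37 and 3.25 ± 0.37, and the TGF-beta induced genes TGFBI and SMAD7 were lower at -3.47 ± 0.31 and -2.04 ± 0.30. Of 20 YAP and TEAD genes, 6 were higher and 8 lower (3 and 6 without those libraries), with the target CCN2 lower at -1.99 ± 0.34 and VGLL3, a TEAD cofactor, higher at 1.77 ± 0.33.

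HOX genes, which encode position along the body axis, were lower in SJRH30 in 26 of 38 tested and higher in 4 (27 and 3 without SJRH30 controls 2 and 4, 25 and 1 in the tumors labelled knockout). The median was -1.55. All 9 HOXD genes and 8 of 9 HOXC genes were lower, with medians of -3.16 and -1.55, against 5 of 11 HOXA and 4 of 9 HOXB genes. HOXD10 had 10, 5, 3 and 3 in SJRH30, against 434, 806, 671, 446 and 822 in RD (-6.75 ± 0.39, adjusted p = 3.58e-09, -6.53 without). HOXC11 had 41, 50, 64 and 31 in SJRH30, against 520, 1044, 1118, 440 and 1069 in RD (-4.08 ± 0.35, adjusted p = 2.52e-07, -4.41 without). Neighbouring HOX genes overlap each other or antisense RNAs in the annotation, so single genes of a cluster are not independent counts.

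Cancer-testis antigens, genes normally silent outside the germ line and targets of T-cell therapy, held some of the widest differences. Of 45 listed, 35 passed the filter on low values, and 21 of these were lower and 4 higher in SJRH30 (19 and 3 of 33 without SJRH30 controls 2 and 4). Near copies were counted more than once among the lower. Without those libraries a member present in SJRH30 alone could not pass the filter, so these counts cannot be compared evenly. CTAG2 (LAGE-1) had 1, 0, 0 and 0 in SJRH30, against 1931, 3921, 3363, 2117 and 3699 in RD (-11.24 ± 0.36, adjusted p = 1.28e-11, -10.99 without). PRAME had 30, 12, 14 and 15 in SJRH30, against 2515, 3936, 3989, 5500 and 4590 in RD (-7.82 ± 0.32, adjusted p = 1.52e-10, -7.48 without). CTAG1B (NY-ESO-1) had 1, 0, 0 and 6 in SJRH30, against 1132, 2574, 1935, 1214 and 2409 in RD, but it and CTAG1A are near-identical copies. MAGEA3, MAGEA6 and MAGEA12, also near copies of one another, had at most 5 in any SJRH30 library and at least 817 in any RD library. The same caution holds for XAGE1A and XAGE1B.

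The other way round, MAGEC2 had 1368, 1082, 848 and 1676 in SJRH30, against 2, 3, 0, 2 and 1 in RD (9.001 ± 0.45, adjusted p = 7e-10), and MAGEC1 and MAGEB1 were higher as well. Promoters of such genes are known to be silenced by methylation of CpG pairs, and the promoter of MAGEC2 is shown for its CpGs, in capitals. It lies at chrX:142205241-142205540, minus strand, and its 10 CpGs are 0.389 of what its base composition would give. The median was 0.524 over the 33 cancer-testis antigen promoters found and 0.761 over the 16280 tested genes with an entry. Methylation was not measured.
MAGEC2: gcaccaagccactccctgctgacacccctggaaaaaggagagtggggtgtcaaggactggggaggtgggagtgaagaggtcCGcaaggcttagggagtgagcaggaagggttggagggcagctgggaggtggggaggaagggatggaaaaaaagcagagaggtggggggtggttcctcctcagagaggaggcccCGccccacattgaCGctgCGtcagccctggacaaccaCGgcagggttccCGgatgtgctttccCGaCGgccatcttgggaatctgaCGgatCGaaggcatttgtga

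Genes present in 1 line only, with at least 500 normalized counts in all its libraries and at most 5 in every library of the other, numbered 4 for SJRH30 and 7 for RD. Those of SJRH30 were MAGEC2, RNF186, AC068535.2 and LOC102723692, and those of RD were CTAG2, PNMA5, CSAG4, MAGEA3, MAGEA6, MAGEA12 and the homeobox gene VAX1. RNF186, a ubiquitin ligase of the gut, had 1267, 3170, 1912 and 1222 in SJRH30, against 5, 0, 0, 0 and 0 in RD. Without SJRH30 controls 2 and 4, MAGEC2 and RNF186 did not enter the test, since fewer than 4 libraries then reach a value of 5. VAX1, a factor of the ventral forebrain, had 2, 1, 2 and 3 in SJRH30, against 537, 996, 1193, 573 and 974 in RD (-8.13 ± 0.37, adjusted p = 2.43e-10, -7.88 without). Among abundant protein-coding genes, the highest difference was that of ERVW-1 (syncytin-1), the envelope gene of an endogenous retrovirus that fuses placental cells. It had 20844, 35461, 29374 and 23929 in SJRH30, against 7, 12, 16, 8 and 7 in RD (11.32 ± 0.30, adjusted p = 1.39e-12, 11.06 without), and it belongs to a family of near-identical copies, so its source locus is uncertain. NTN5, a netrin, had 13877, 43894, 33099 and 13263 in SJRH30, against 54, 53, 44, 24 and 35 in RD (9.11 ± 0.37, adjusted p = 1.52e-10, 8.36 without). LY6E, an interferon-inducible surface protein, was among the 12 lowest, with 0, 2, 2 and 7 in SJRH30, against 595, 1287, 1457, 835 and 1758 in RD (-8.57 ± 0.51, adjusted p = 4.5e-09, -8.61 without). IGLL5, FCRLA and GZMH, known from lymphocytes, were among the 12 highest, by 8.36 ± 0.34, 9.11 ± 0.54 and 7.93 ± 0.48. IGLL5 overlaps immunoglobulin lambda segments, whose reads cannot be told apart from it.

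Of 27 cadherins and neural adhesion genes, 6 were higher and 13 lower (5 and 10 without SJRH30 controls 2 and 4). CDH15 (M-cadherin), the cadherin of satellite cells, had 13314, 42078, 28330 and 10263 in SJRH30, against 1888, 3129, 4290, 1997 and 2617 in RD (2.92 ± 0.39, adjusted p = 2.44e-05, 2.14 without). CDH2 (N-cadherin) had 396, 287, 220 and 349 in SJRH30, against 1730, 1623, 2100, 1818 and 2018 in RD (-2.59 ± 0.25, adjusted p = 8.46e-07, -2.31 without). CD44, the hyaluronan receptor, had 133, 65, 89 and 98 in SJRH30, against 733, 904, 1058, 1648 and 1441 in RD (-3.56 ± 0.31, adjusted p = 2.65e-07, -3.27 without). Of 32 neural genes, 5 were higher and 17 lower (5 and 11 of 29 without SJRH30 controls 2 and 4). RBFOX1, a splicing factor of neurons and muscle, had 1787, 1431, 1419 and 1854 in SJRH30, against 20561, 30479, 30267, 16421 and 21809 in RD (-3.85 ± 0.27, adjusted p = 2.16e-08, -3.67 without). DCX (doublecortin), which is also a listed fusion target, was higher by 2.41 ± 0.25.

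Collagen and matrix genes were lower in SJRH30 in 27 of 51 and higher in 4 (26 and 3 without SJRH30 controls 2 and 4), with a median of -0.99 (-1.12 without SJRH30 controls 2 and 4, -1.39 in the tumors labelled knockout). COL9A1, COL9A2 and COL9A3, the chains of cartilage collagen IX, were all lower. COL9A2 had 156, 352, 239 and 85 in SJRH30, against 2809, 4606, 4659, 4021 and 5490 in RD (-4.52 ± 0.36, adjusted p = 9.13e-08, -5.18 without). COL2A1, the main cartilage collagen, went the other way, with 3471, 10511, 5499 and 5089 in SJRH30, against 759, 1625, 1167, 1327 and 1820 in RD (2.14 ± 0.33, adjusted p = 0.000105, 1.71 without). DCN (decorin), made by fibroblasts, had 962, 462, 410 and 559 in SJRH30, against 3040, 3630, 2761, 5068 and 5461 in RD (-2.77 ± 0.30, adjusted p = 3.49e-06, -2.39 without). Of 14 markers of fibroblasts and pericytes, 8 were lower and 1 higher (9 and none without SJRH30 controls 2 and 4). But 5 of the 14, DCN among them, are also in the matrix list. Of the other 9, 5 were lower and 1 higher, and their summed value was 3536 to 6916 in SJRH30 and 8215 to 9110 in RD. Among 14 endothelial markers 6 were lower and none higher (3 and none without SJRH30 controls 2 and 4), summing to 1270 to 2012 in SJRH30 and 2793 to 5031 in RD. None of the 14 was at 0 in any library, and reads of mouse cells were not stated to be removed. The part of host stroma in the matrix differences was not tested.

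Antigen presentation and interferon genes had more lower than higher calls in SJRH30. Of 16 class I genes, 8 were lower and 2 higher (7 and 1 without SJRH30 controls 2 and 4, 3 and 3 in the tumors labelled knockout). HLA-B and HLA-C, whose reads can be shared with other class I genes, did not pass (-0.64 ± 0.45 and -0.27 ± 0.59). Both were low in RD control 3, at 221 and 129, and HLA-B passed without that library (-1.07 on the log2 scale, adjusted p = 0.0182). Of 34 interferon-stimulated genes, 16 were lower and 4 higher (12 and 3 without those 2 libraries). IFIT2, an interferon-induced protein that blocks translation, was lower (-2.58 ± 0.32, adjusted p = 1.27e-05, -2.39 without). Macrophage markers summed to 8884 to 12617 in SJRH30 and 6846 to 15540 in RD. LAPTM5 was the 1 of 18 that was higher (3.30 ± 0.41), with 4 lower (1 higher and 2 lower without SJRH30 controls 2 and 4).

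Imprinted genes went both ways, 8 higher and 8 lower of 24 (6 and 6 without SJRH30 controls 2 and 4). The noncoding RNA MEG3 had 39576, 100857, 84104 and 28358 in SJRH30, against 2817, 4903, 8357, 2576 and 3386 in RD (3.80 ± 0.42, adjusted p = 3.16e-06, 3.07 without), and MEG8 of the same region, which overlaps it, was higher by 3.23 ± 0.40, while DLK1, expressed from the other parental copy, was lower (-2.07 ± 0.48). PEG3, a zinc finger gene, had 14782, 6889, 6598 and 19730 in SJRH30, against 184, 174, 129, 261 and 227 in RD (5.82 ± 0.34, adjusted p = 4.06e-09, 6.49 without), and shares exons with ZIM2. NNAT, GRB10 and PHLDA2 were lower (-2.95 ± 0.31, -2.73 ± 0.31 and -2.59). H19 varied from 180 to 1162 in SJRH30 and from 156 to 1718 in RD without a call. Of 6 TLE corepressors, TLE1 was higher and TLE2 and TLE3 lower, also without SJRH30 controls 2 and 4. TLE1 had 6517, 11134, 8288 and 6820 in SJRH30, against 896, 958, 1400, 851 and 893 in RD (3.02 ± 0.26, adjusted p = 2.21e-07, 2.76 without). TLE3, the gene the guides of the study target, had 426, 638, 597 and 407 in SJRH30 controls, against 1345, 1810, 2622, 1270 and 1809 in RD controls (-1.75 ± 0.28, adjusted p = 0.000122, -2.04 without).

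**Figure D5:**
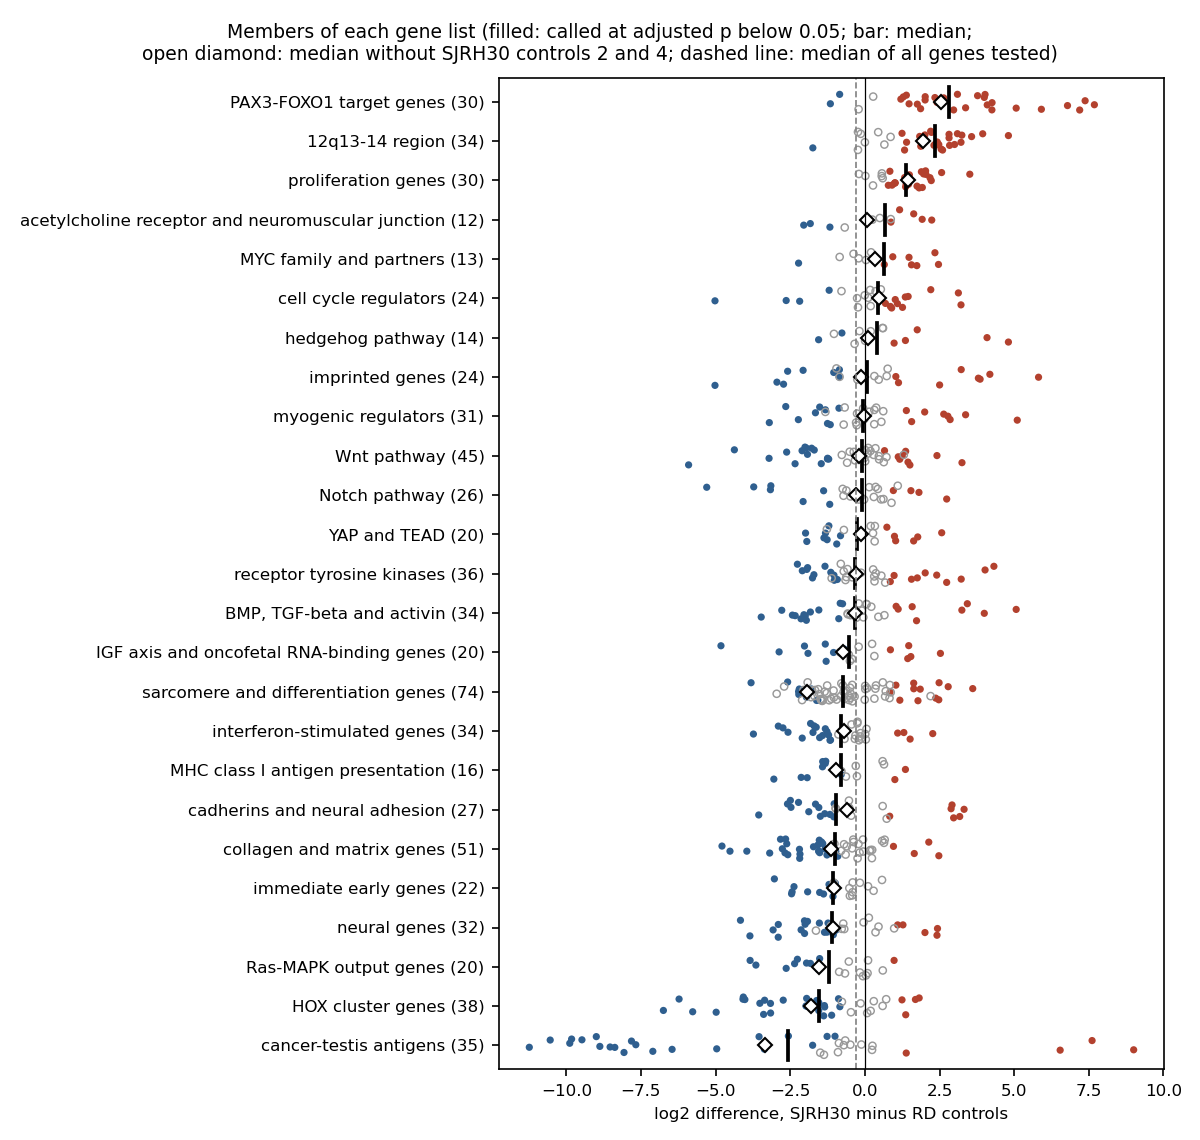
Log2 difference of SJRH30 minus RD controls (horizontal axis) for every tested member of 25 gene lists (rows, with the number of members), filled where called at adjusted p below 0.05, with the list median as a bar and the median without SJRH30 controls 2 and 4 as an open diamond. PAX3-FOXO1 targets, the 12q region and proliferation genes lie to the right, and cancer-testis antigens, HOX genes and MAP kinase output genes to the left of the dashed median of all genes.

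The tumors labelled TLE3 knockout gave the same comparison in other libraries. There 5809 genes were higher (16.3%) and 5912 lower (16.5%) in SJRH30 of 35739 tested, and 40.3% of protein-coding genes were called. Of 34431 genes tested in both, 16345 were called in the controls and 11554 in the knockouts, and 9260 were called in both with the same sign. They were 56.65% of the control calls and 80.15% of the knockout calls, 4601 of them higher and 4659 lower in SJRH30. Another 18 were called in both with opposite signs. KRT18, a simple epithelial keratin, averaged 675.5 in SJRH30 controls and 70.0 in RD controls, but 9.2 in SJRH30 and 59.3 in RD tumors labelled knockout. In limma's test of this change, the line difference changed by 6.06 on the log2 scale (adjusted p = 0.000144). KRT18 was picked for its opposite calls in these same libraries, so that result is not separate support. KRT8, its partner, and MYL4, an embryonic myosin light chain, were among the 18 as well, with 463.5 and 1620 in SJRH30 controls, 150.2 and 450 in RD controls, and 65.0 and 426 in SJRH30 against 134.8 and 898.2 in RD tumors labelled knockout. In all, 92 of 39530 genes (0.233%) differed between the control and knockout comparisons.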

How the data were processed

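RNA of xenograft tumors was sequenced after poly(A) selection. The deposited table holds, per gene and library, normalized counts that the authors scaled and rounded to whole numbers, treated here as a score and not as raw counts. Per the submitters' processing notes, FastQC, fastp 0.20.1, STAR 2.7, featureCounts and edgeR were used with GRCh38.p7, with no settings, strand setting or removal of mouse reads stated. The authors' deposited comparison table, which gives a ratio (fold change), its log2 value and a p-value per gene, was read as a check only, and none of its values is printed.

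Values were tested as log2(value + 1), a scale that understates the change of low genes, for genes with a value of 5 or more in 4 or more of the 9 libraries. The test was limma 3.58.1 with a mean-variance trend (R 4.3.3), two-sided, with Benjamini-Hochberg adjustment over all genes tested, and every adjusted p printed is from it. The script was tested on simulated data. Positions, exonic lengths and GC content came from GENCODE 29, for 43815 of the 44294 genes with values. Libraries labelled knockout were fitted alone, without RD replicate 5, and the change of the line difference in 18 deep libraries. Replicate numbers shared between the lines gave correlations of 0.213, 0.084, 0.046 and -0.089 in the controls, so no pairing was used there. In the tumors labelled knockout, replicates 1 to 4 gave -0.024, 0.153, 0.442 and 0.536. These were also fitted without pairing, with 11721 calls, beside 11803 with a replicate block. Members and gene lists were chosen with earlier results of these data known. Genes were named by a fixed rule: a panel, up to 4 called members with the largest differences per list, the 12 highest and 12 lowest, genes present in 1 line only and the 10 most variable per line. Other genes named (among them USP22 and those with opposite calls) were chosen after their values were seen. The depth in reads is not given, so no counting interval is printed. Some named genes are not reported here.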

Additional observations from a re-analysis of the deposited data

Results flagged for a closer look

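Among 358 groups of libraries examined for the genes named, 15 held 1 library far from the others by Dixon's test at 95%. Chance gives about 1 in 20, and 15 of 358 is no more than that, so the flags are a list for a closer look only. RD control 1 held 7 of the 15. It was high for KRT5 (7410), KRT14 (6933), TFAP2B (118, others 14 to 25) and RNF186 (5, others 0), and low for CHRND (3154), CXCR4 (2626) and PHLDA1 (5271). RD control 3 was high for IGF1R (7011) and TLE1 (1400) and had 0 for OLIG2, whose other RD values were 7 to 10. In SJRH30, control 1 was high for CCN2 (2529) and had 1 for CTAG2 where the others had 0. SJRH30 control 2 was high for KIF5A (66), and SJRH30 control 5 was low for COL9A3 (60) and had 5 for MYF5 where the others had 0.

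For 7 genes named the line difference changed between the control tumors and those labelled knockout, by limma's test of that change with adjustment over all genes. Of these, KRT18, KRT8 and MYL4 had opposite calls in the same libraries, so their results are not separate support. The test held SJRH30 controls 2 and 4 and was not run without them. The control difference minus the knockout difference was 2.42 on the log2 scale for CHRNG (adjusted p = 0.03), 1.84 for ASS1 (adjusted p = 0.0392), -1.89 for EPHA4 (adjusted p = 0.0423), -3.07 for FOSB (adjusted p = 0.00484), 2.97 for MYL4 (adjusted p = 0.00514), 6.06 for KRT18 (adjusted p = 0.000144) and 2.85 for KRT8 (adjusted p = 0.0376).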

How the results depend on the processing

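Of 16724 calls with all 9 libraries, leaving out 1 library at a time gave 13875 to 16991 calls, 6444 to 7450 higher and 7273 to 9562 lower in SJRH30, and 9245 to 13548 in the tumors labelled knockout. Adding the shallow SJRH30 control 3 gave 5945 calls (2043 higher, 3902 lower), and all 20 libraries gave 8334 (2812 and 5522). Equal nuclear totals gave 4116 higher and 15286 lower. A minimum value of 50 left 6741 higher and 5781 lower, and quantile normalization gave 7413 higher and 6655 lower. An adjusted p below 0.01 left 10752 calls (5413 higher, 5339 lower). Leaving out SJRH30 controls 2 and 4, an alternative chosen after seeing the data like the GC correction, left 5756 higher and 5842 lower. The replicate block gave 17169 calls, 11803 in the knockouts and 19385 with a GC correction. Of the named differences called with all 9 libraries, CCND2 (-0.14 under quantile normalization) and SMO (-0.055 with SJRH30 control 3 or all 20 libraries) turned sign. DES, not called, was called at -0.78 under the block with GC correction, and 16 uncalled differences changed sign under at least 1 setting, ACTA1 running from -2.73 to 1.28. Of 179 named genes, 166 stayed on their side of the threshold without SJRH30 controls 2 and 4. With SJRH30 control 3 included, 142 did, 35 lost their call and 1 reversed, among them FGFR4 (2.66, adjusted p = 0.15), MYOD1 (2.42, adjusted p = 0.0828), CDK4 (2.22, adjusted p = 0.108), CHRNG (1.32, adjusted p = 0.315) and CCND3 (0.63, adjusted p = 0.502). With all 20 libraries 16 lost it. The median of some lists changes sign with scaling: with equal nuclear totals the MYC family went to -0.01, cell cycle regulators to -0.21 and the hedgehog pathway to -0.27. The causes were not tested.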
